A study of Homo sapiens with 12 samples.

Results

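Telomeres are the repeated DNA ends of chromosomes, and shelterin is the protein complex that covers them and keeps them from being handled as broken DNA. Its subunits are TERF1 and TERF2, which bind the double-stranded repeats, TERF2IP (RAP1), which TERF2 carries, POT1, which binds the single-stranded overhang, and ACD (TPP1) and TINF2 (TIN2), which link the others. TERT is the catalytic subunit of telomerase, RTEL1 is a helicase that unwinds telomeric loops, and DKC1 encodes dyskerin, which holds the telomerase RNA. Human fibroblasts are known for having little or no telomerase and for losing telomere repeats as they divide, which in time stops their growth. These 9 genes were chosen by name, and each was followed through the probe sets that name it alone, one by one and as the mean per gene. The files held 18 such probe sets for 8 of the 9 genes, among 19775 genes in all. The 3 probe sets that name DKC1 also name SNORA56 and MIR664B, small RNA genes that lie within DKC1, so they are described apart and not counted among the 8.

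The cells were IMR-90, fibroblasts from human lung that divide a limited number of times in culture, and their RNA was measured on 12 Affymetrix arrays. Of the 4 groups with 3 biological replicates each, old cells were kept in 3% oxygen to population doubling 53 and were not senescent, senescent cells were kept in 20% oxygen to population doubling 48, young cells in 3% oxygen were at population doubling 30, and young cells in 20% oxygen were also at population doubling 30. The labels give no genetic change and no added agent for any group, all cells came from 1 line, and the oxygen levels had an incubator each, so oxygen and incubator cannot be told apart. The labels call the replicates biological and say no more of their cultures, so the p-values below measure the spread between these arrays.

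Signals below are on the log2 scale, with the 12-array median of every probe set placed at 0. A value of 0 therefore means the middle of these arrays, not absence, and levels cannot be compared between genes. Changes are differences of group means in log2 units ± the standard error from limma, with 3 arrays per group, and a gene was called where limma's p, adjusted by Benjamini-Hochberg over all genes, was under 0.05. Array medians lay between -0.02 and 0.05, and no 2 arrays were identical. CDKN1A, the cell cycle inhibitor p21, was 1.76 ± 0.11 higher with senescence at 20% oxygen, and LMNB1, a nuclear lamina gene that senescent cells lose, was 0.62 ± 0.12 lower. Of 11 fibroblast markers, 1 was called higher and 5 lower in the same comparison, against 4.67% and 7.84% of all genes. In young cells at 3% against 20% oxygen 1 was called higher and 4 lower, against 4.96% and 6.84% of all genes. Their mean level per array ran between -0.12 and 0.02 in old cells at 3% oxygen, between -0.06 and -0.04 in senescent cells, between -0.13 and -0.03 in young cells at 3% and between 0.22 and 0.26 in young cells at 20%, and the part of this in the results below was not tested. With senescence 0 of 9 epithelial, 0 of 7 endothelial and 0 of 6 measured immune markers were called, and 1 of 7 pericyte and smooth muscle markers was called in each direction. Whether any of these marker genes was present at all cannot be read from centred values. In these bulk samples, fewer cells of a type and less RNA per cell cannot be told apart.

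The promoters of TERF2IP, POT1 and DKC1 are printed because these genes, or the probe sets that name them, differed between groups. RefSeq's table for GRCh38.p14 held promoters for 7 of the 9 genes. It had none for TERF2 or for TERF1, which also differed between groups and so is not printed. Each line is the 250 bases before the gene's start, 5′ to 3′ on the gene's strand, at chr16:75647523-75647772 (plus strand) for TERF2IP, chr7:124929826-124930075 (minus strand) for POT1 and chrX:154762614-154762863 (plus strand) for DKC1. Capitals mark matches, on either strand, to CACGTG (the E-box that MYC and MAX bind), ACGTG and GCGTG (cores of the hypoxia response element) or the core of the NRF1 motif (GCGCA and GCGC with any single base between them).
TERF2IP: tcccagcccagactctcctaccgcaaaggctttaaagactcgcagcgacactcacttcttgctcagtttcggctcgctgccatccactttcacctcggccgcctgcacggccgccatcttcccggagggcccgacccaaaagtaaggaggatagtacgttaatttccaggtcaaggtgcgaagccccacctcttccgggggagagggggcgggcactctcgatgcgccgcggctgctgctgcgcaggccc
POT1: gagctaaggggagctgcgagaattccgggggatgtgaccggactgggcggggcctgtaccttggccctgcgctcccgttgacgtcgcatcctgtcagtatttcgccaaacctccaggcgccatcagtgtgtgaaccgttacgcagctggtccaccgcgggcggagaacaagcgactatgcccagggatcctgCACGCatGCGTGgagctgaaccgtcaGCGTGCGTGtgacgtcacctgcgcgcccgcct
DKC1: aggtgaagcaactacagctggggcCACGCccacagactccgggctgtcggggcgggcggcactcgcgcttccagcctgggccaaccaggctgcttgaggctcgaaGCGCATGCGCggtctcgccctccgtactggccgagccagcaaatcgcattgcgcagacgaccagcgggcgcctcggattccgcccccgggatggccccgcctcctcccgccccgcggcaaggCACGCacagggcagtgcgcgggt
The TERF2IP window held none of these motifs. The POT1 window held 4 matches to GCGTG, of which 2 share a base, and the DKC1 window held 2 matches to GCGTG and 1 to the NRF1 core. Among 35116 promoter windows of the same length, 6.34% held CACGTG, 18.5% ACGTG, which also lies inside CACGTG, 32.2% GCGTG and 5.07% the NRF1 core. A match is a description of the letters only.

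**Figure D1:**
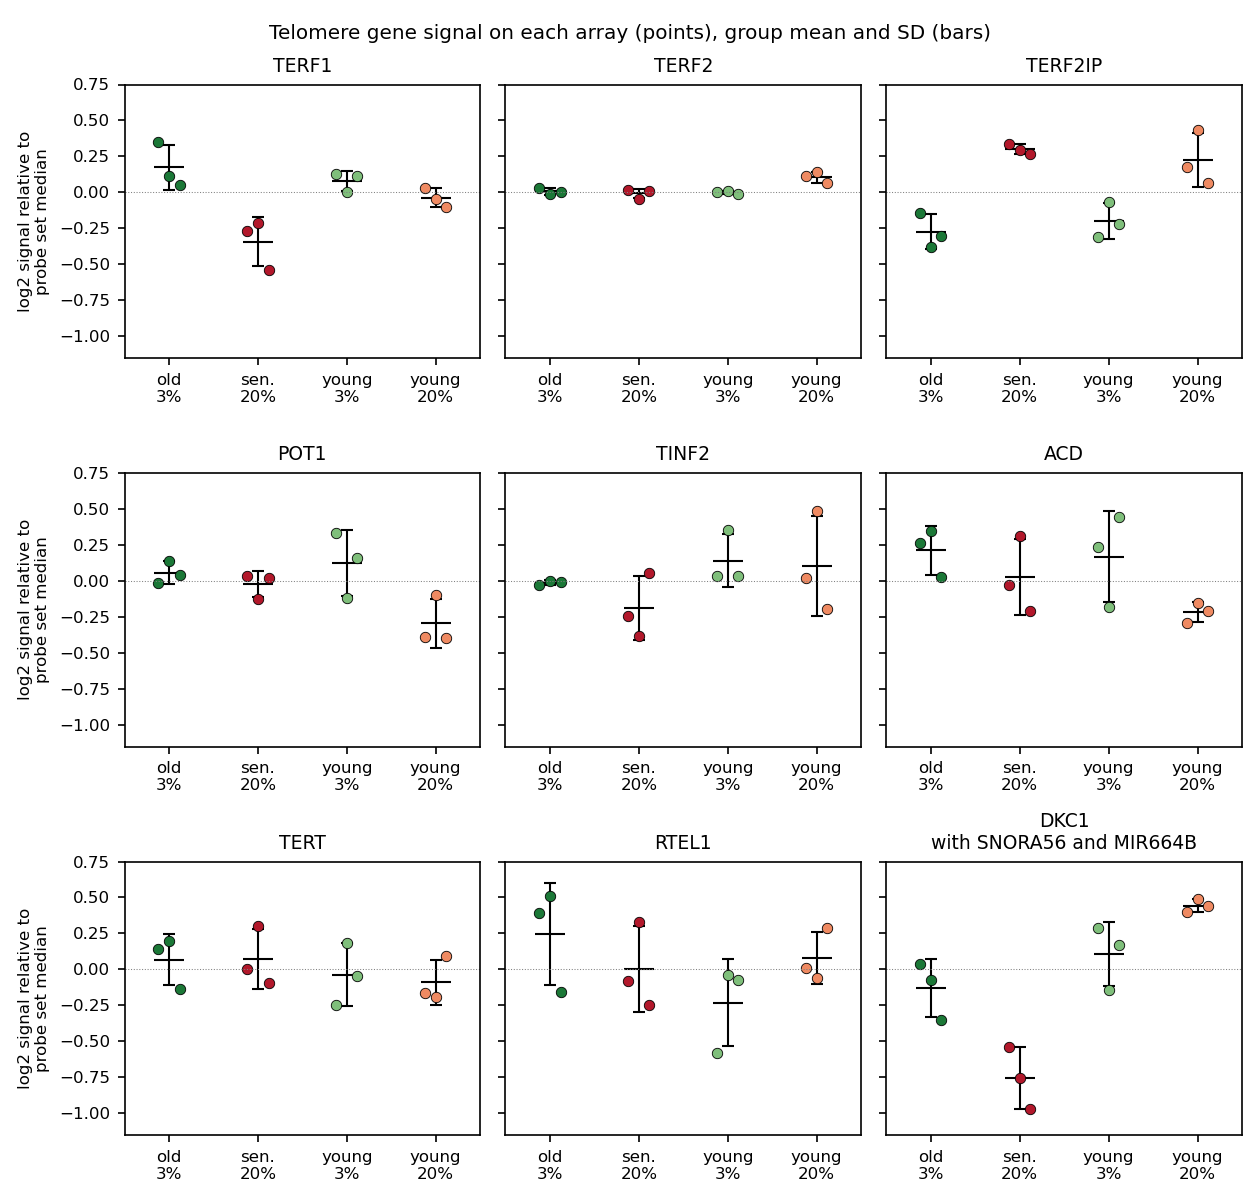
Points show the log2 signal relative to the probe set median on each of the 12 arrays, and bars the mean and SD of each group of 3, for the 8 telomere genes and for the probe sets that name DKC1 with SNORA56 and MIR664B. TERF2IP lies below 0 on all arrays at 3% oxygen and above 0 on all arrays at 20%, TERF1 is lowest in senescent cells, and the DKC1 probe sets run between -0.97 in senescent cells and 0.49 in the young 20% oxygen group.

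Calls among the 8 genes came in comparisons that crossed oxygen levels, for TERF1, TERF2IP and POT1, and not with passage at 1 oxygen level. Pairwise calls of TERF1 all involved senescent cells. Against young cells at 20% oxygen, its limma change was 0.12 ± 0.11 in young cells at 3% (adjusted p = 0.554). In old cells at 3% it was 0.21 ± 0.11 (0.316), and neither was called. Any difference among the 4 groups was called by limma's F test for 2 of the 8 genes, against 20.0% of all genes, with TERF2IP at an adjusted p of 0.00343 and TERF1 at 0.0188. With senescence at 20% oxygen 0 of the 8 genes were called by limma, against 12.5% of all genes. At an unadjusted p under 0.05 there were 2, TERF1 and POT1, and the smallest adjusted p was 0.106. With passage at 3% oxygen 0 of the 8 were called, against 1.74% of all genes. At an unadjusted p under 0.05 there was 1, RTEL1, and the smallest adjusted p was 0.327. Between young cells at 3% and at 20% oxygen 2 of the 8 were called, TERF2IP lower and POT1 higher, against 11.8% of all genes. Old cells (3% oxygen) against senescent cells (20%) gave 2 calls among the 8, TERF1 higher and TERF2IP lower, against 11.0% of all genes. The counts of 2 among 8 genes are not read as more than these shares. The comparisons share groups of arrays and so are not independent of each other. Of the single calls, those of TERF1 and TERF2IP between old and senescent cells held under all 24 alternatives run for them.

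TERF1, which binds the double-stranded repeat and limits telomere length, was lowest in senescent cells. Its signal was 0.35, 0.11 and 0.05 in old cells at 3% oxygen and -0.27, -0.21 and -0.54 in the senescent cells. The young cultures had 0.13, 0.00 and 0.11 at 3% oxygen and 0.03, -0.04 and -0.10 at 20%. All 3 senescent arrays lay below all 9 others, and the 3 other groups lay close together. Old cells at 3% oxygen were 0.51 ± 0.11 higher than senescent cells (1.43-fold, adjusted p = 0.00819). Senescent cells were also 0.42 ± 0.11 lower than young cells at 3% oxygen (adjusted p = 0.0268). That call was lost under 6 of 23 alternatives, namely a threshold of 0.01, the 2 groups alone (0.0769), and without replicate 1 (0.0526) or 3 (0.101) of the senescent cells or replicate 1 (0.0865) or 3 (0.0779) of the young cells. The change of -0.30 ± 0.11 against young cells at 20% oxygen was not called (adjusted p = 0.106). Senescent cells against young cells at 3% oxygen gave 2 calls in all, TERF1 lower and TERF2IP higher, against 10.9% of all genes. The change with passage at 3% oxygen was 0.09 ± 0.11 (adjusted p = 0.674). The difference between the passage changes at 20% and at 3% oxygen was -0.40 ± 0.16 and was not called (adjusted p = 0.193). In every such difference the 20% arm ends in senescent cells and the 3% arm in nonsenescent cells at a later doubling. Oxygen, senescence and number of doublings cannot be told apart in it. The F test of TERF1 was lost without replicate 3 of the senescent cells, its lowest array (adjusted p = 0.0842).

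TERF1 had 2 probe sets, and they differed in which senescent arrays were low. With 203448_s_at the senescent arrays were at -0.45, -0.31 and -0.31, and old cells at 3% oxygen were 0.56 ± 0.12 higher (adjusted p = 0.0114 over all probe sets). With 203449_s_at the senescent arrays were at -0.09, -0.12 and -0.77, and the same difference, 0.46 ± 0.16, was not called (adjusted p = 0.105). The array at -0.77 was replicate 3, while the first probe set was low on all 3 senescent arrays.

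TERF2IP, which encodes the shelterin subunit RAP1, had the widest group differences in the complex and followed oxygen. Its signal was -0.14, -0.38 and -0.30 in old cells at 3% oxygen and 0.34, 0.30 and 0.27 in the senescent cells. Young cells gave -0.31, -0.07 and -0.22 at 3% oxygen and 0.17, 0.43 and 0.07 at 20%. All 6 arrays at 3% oxygen lay below all 6 at 20%. Old cells at 3% oxygen were 0.58 ± 0.11 lower than senescent cells (1.49-fold, adjusted p = 0.00428). Young cells at 3% oxygen were 0.42 ± 0.11 lower than young cells at 20% oxygen (1.34-fold, adjusted p = 0.0261). Across passage and oxygen, senescent cells were 0.50 ± 0.11 higher than young cells at 3% oxygen (adjusted p = 0.0110), and old cells at 3% were 0.50 ± 0.11 lower than young cells at 20% (adjusted p = 0.00891), the only one of the 8 genes called there, against 13.3% of all genes. With passage the change was 0.08 ± 0.11 at 20% oxygen (95% interval -0.17 to 0.32) and -0.08 ± 0.11 at 3% oxygen (95% interval -0.32 to 0.17), neither of them called. TERF2IP rests on a single probe set, 201174_s_at. The call between young cells was lost under 7 of 23 alternatives. It was lost at a threshold of 0.01, with the probe set of largest SD (adjusted p = 0.0541) and with the 2 groups alone (0.0741). It was also lost without replicate 1 (0.0628) or 2 (0.118) of the young cells at 20% oxygen. The same held without replicate 1 (0.0966) or 3 (0.0720) of those at 3%.

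Both comparisons across oxygen, young with young cells and old with senescent cells, also differ in growth genes. Old and senescent cells differ in senescence and in number of doublings too, so oxygen cannot be told apart from these there. The mean of 18 proliferation genes was 0.69 in old cells at 3% oxygen and -0.70 in senescent cells. Among young cells it was 0.67 at 3% and -0.60 at 20% oxygen. Of the 18, 16 were called higher in young cells at 3% than at 20% oxygen, against 4.96% of all genes. In old cells at 3% oxygen 16 were called higher than in senescent cells, against 6.59% of all genes. The part of this difference in the TERF1 and TERF2IP results was not tested.

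POT1, which caps the single-stranded overhang, was lowest in young cells at 20% oxygen. Its signal was -0.01, 0.14 and 0.04 in old cells at 3% oxygen and 0.04, -0.12 and 0.02 in senescent cells. It was 0.33, -0.12 and 0.16 in young cells at 3% oxygen and -0.39, -0.10 and -0.39 in young cells at 20%. The last 2 groups overlapped, through replicate 2 of each. Young cells at 3% oxygen were 0.42 ± 0.12 higher than young cells at 20% (1.34-fold, adjusted p = 0.0472). This call was lost under 17 of 23 alternatives, among them 10 of the 12 in which 1 array was left out, where the adjusted p reached 0.179 without replicate 1 of the young cells at 3% oxygen. With the replicate number as a block its adjusted p was 0.0841. Of its 2 probe sets, 204354_at was called in this comparison (0.42 ± 0.12, adjusted p = 0.0452) and 204353_s_at was not (0.42 ± 0.18, adjusted p = 0.193). The change with senescence, 0.27 ± 0.12, was not called (adjusted p = 0.226).

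TERF2, the subunit that holds the telomere loop and blocks end joining, varied very little as a gene mean. Its signal was 0.03, -0.01 and 0.01 in old cells at 3% oxygen and 0.02, -0.04 and 0.01 in senescent cells. It was 0.00, 0.01 and -0.01 in young cells at 3% oxygen and 0.12, 0.14 and 0.06 in young cells at 20%. The young cells at 20% oxygen lay above all other arrays, within a whole range of 0.18 over the 12. The SD over the 12 arrays was 0.054, with 0.177% of genes lower and a median gene at 0.199. The mean averages 5 probe sets, which can narrow its SD, while 9252 of the 19775 genes had 1 probe set. Taken singly, the 5 probe sets of TERF2 had SDs between 0.097 and 0.256. In senescent against young cells at 20% oxygen 1 of them, 235872_at, was 0.50 ± 0.14 lower (adjusted p = 0.0359), with 0.06, -0.23 and 0.00 in senescent cells and 0.60, 0.35 and 0.37 in young cells. The other 4 gave changes between -0.21 and 0.14, of both signs, and were not called. This was the only call among the 18 probe sets in that comparison, against 11.4% of all probe sets that name 1 gene.

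The same probe set of TERF2 was 0.46 ± 0.14 lower in old cells at 3% than in young cells at 20% oxygen (adjusted p = 0.0490). It was 0.47 ± 0.14 lower in young cells at 3% than at 20% oxygen, which was not called (adjusted p = 0.0512). With passage at 3% oxygen it changed by 0.01 ± 0.14 (adjusted p = 0.987). This probe set was thus high in young cells at 20% oxygen alone. In the comparisons that follow, the probe sets called belonged to genes that were called. Between young cells at 3% and 20% oxygen 2 of 18 were called, against 10.5% of such probe sets. Between old cells at 3% oxygen and senescent cells 2 of 18 were called, against 9.58%. With passage at 3% oxygen 0 of 18 were called by limma, against 1.28%, and 1 had an unadjusted p under 0.05.

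**Figure D2:**
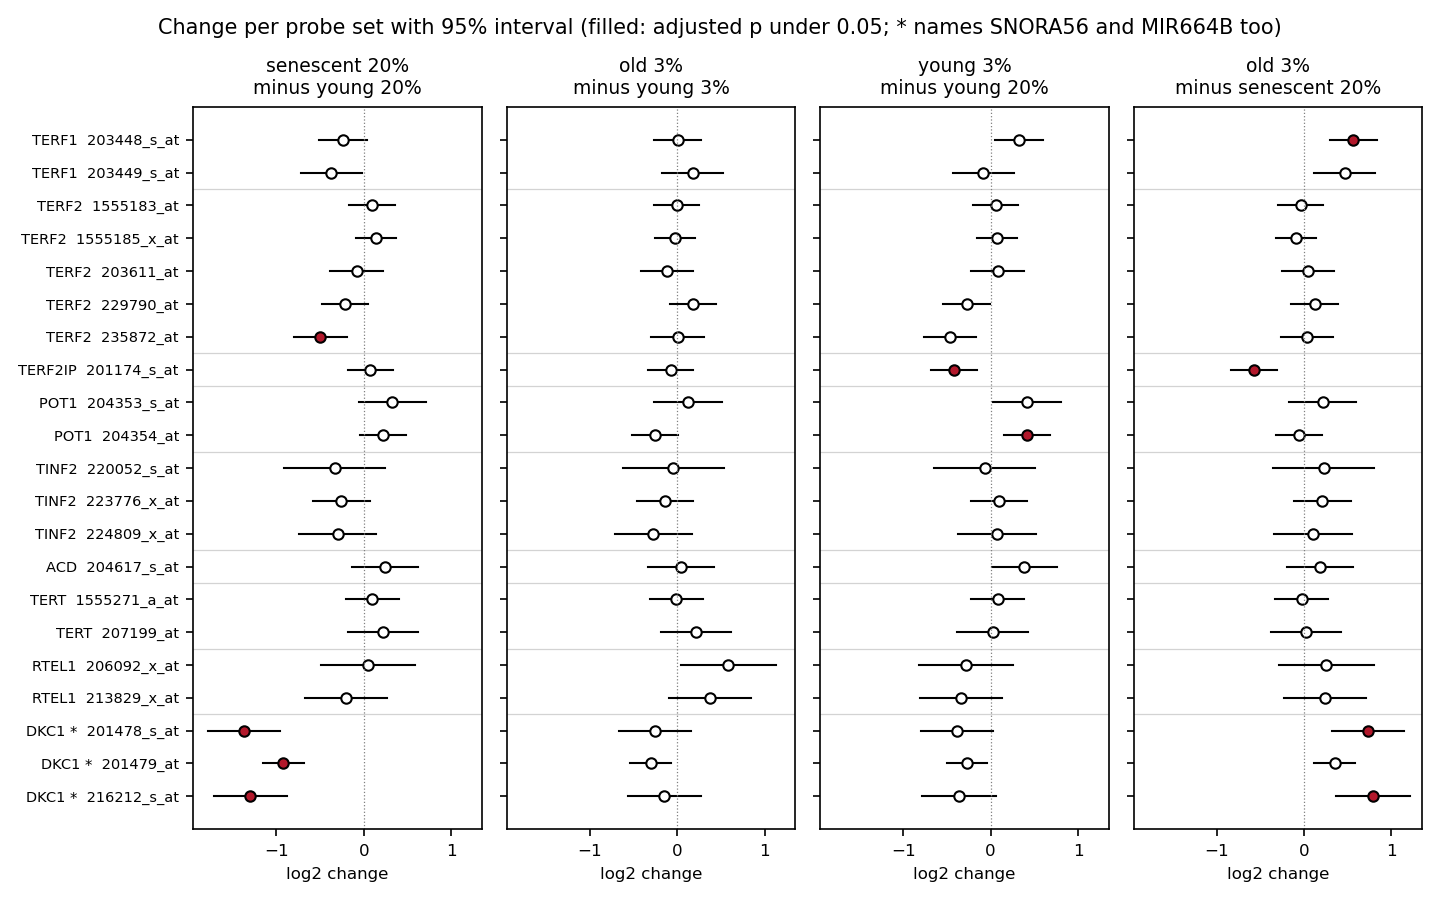
Log2 change and 95% interval of each probe set in the comparisons of the 4 groups, with filled points at an adjusted p under 0.05 over all probe sets of the fit. The 3 probe sets that name DKC1 with SNORA56 and MIR664B lie at -1.37, -0.92 and -1.30 in senescent against young cells at 20% oxygen, and of the other 18 only 1 of TERF2 is filled there.

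The linking subunits were not called in any comparison. TINF2 gave -0.03, 0.00 and -0.01 in old cells at 3% oxygen and -0.24, -0.38 and 0.05 in senescent cells. Young cells gave 0.03, 0.35 and 0.03 at 3% oxygen and 0.02, 0.49 and -0.19 at 20%. Replicate 2 was high in both young groups, and all groups overlapped except old and young cells at 3% oxygen, which lay apart by a narrow margin. With senescence TINF2 changed by -0.30 ± 0.17 (95% interval -0.65 to 0.06, adjusted p = 0.361). ACD gave 0.26, 0.35 and 0.02 in old cells at 3% oxygen and -0.02, 0.32 and -0.21 in senescent cells. Young cells gave 0.24, -0.18 and 0.45 at 3% oxygen and -0.29, -0.15 and -0.21 at 20%. The young cells at 20% oxygen were the tightest and lowest group, while replicate 2 of the young cells at 3% lay among them. Their difference, 0.39 ± 0.17 between young cells at 3% and at 20% oxygen, was not called (adjusted p = 0.184), but was called without that array (0.56, adjusted p = 0.0427), with array weights (0.51, 0.0155) and with RNA quality as a covariate (0.45, 0.0435). That array also had the widest gap between the 3' and 5' controls for ACTB, a measure of RNA quality, at 0.706, against -0.219 to 0.348 on the others.

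TERT, the reverse transcriptase of telomerase, was not called in any comparison. Its signal was 0.14, 0.20 and -0.14 in old cells at 3% oxygen and 0.00, 0.31 and -0.10 in senescent cells. It was -0.24, 0.19 and -0.05 in young cells at 3% oxygen and -0.17, -0.19 and 0.09 in young cells at 20%. All groups overlapped. Its changes were 0.16 ± 0.15 with senescence at 20% oxygen (95% interval -0.16 to 0.47) and 0.10 ± 0.15 with passage at 3% (-0.21 to 0.42). Between young cells at 3% and 20% oxygen the change was 0.05 ± 0.15 (-0.26 to 0.37). Whether TERT was above background on any array cannot be read from centred values.

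RTEL1, the loop-unwinding helicase, had the largest change with passage at 3% oxygen among the 8 genes, and it was not called. Its signal was 0.39, 0.51 and -0.15 in old cells at 3% oxygen and -0.08, 0.33 and -0.25 in senescent cells. It was -0.58, -0.04 and -0.08 in young cells at 3% oxygen and 0.01, -0.06 and 0.29 in young cells at 20%. Old and young cells at 3% oxygen overlapped because replicate 3 of the old cells was low. The difference was 0.48 ± 0.21 (95% interval 0.03 to 0.93, adjusted p = 0.327). With the array-wide factor as a covariate, a score that each array has on the first axis of variation within groups, its adjusted p was 0.00346. The score was drawn from the spread of these same arrays, so that fit is no separate support. Over all genes 344 were called in this comparison, and up to 2457 over the alternatives other than left-out arrays. That score was highest on replicate 3 of the old cells (0.452) and replicate 1 of the young cells at 3% oxygen (0.379), the low arrays of their groups. Its part in the RTEL1 values was not tested. Of 2 further probe sets that name RTEL1 together with RTEL1-TNFRSF6B the mean changed by 0.37 ± 0.20 in this comparison (adjusted p = 0.410). Both probe sets of RTEL1 alone carry the suffix of probes that may bind other transcripts too. Among the other members, 223776_x_at and 224809_x_at of TINF2 and 1555185_x_at of TERF2 carry the same suffix.

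The order of the groups differed between genes. TERF2IP was highest in senescent cells, then in young cells at 20% oxygen, young cells at 3% and old cells at 3%, and of these neighbours only the young groups were called as different. TERF1 was highest in old cells at 3% oxygen, then young cells at 3%, young cells at 20% and senescent cells, and no neighbours were called, though the first and last were. POT1 was highest in young cells at 3% oxygen, then old cells at 3%, senescent cells and young cells at 20%, again with no neighbours called. No pair of groups was called for TERF2, TINF2, ACD, TERT or RTEL1. The plot of changes per gene sets the 8 genes and the DKC1 probe sets side by side.

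**Figure D3:**
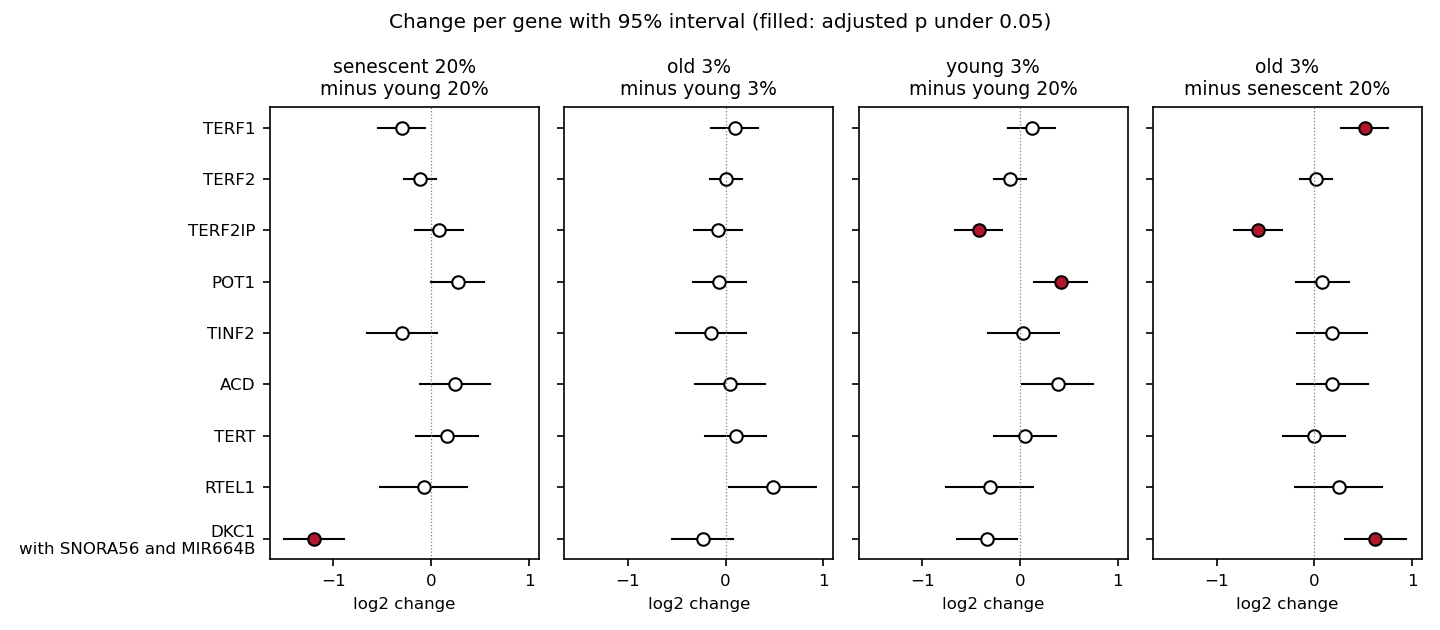
Log2 change per gene with its 95% interval in 4 comparisons of the groups, with filled points at an adjusted p under 0.05 over all genes. The filled points are TERF2IP and POT1 between young cells at 3% and 20% oxygen, TERF1 and TERF2IP between old cells at 3% and senescent cells, and the DKC1 probe sets in senescent against young cells at 20% oxygen and in old against senescent cells.

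The probe sets that name DKC1 with SNORA56 and MIR664B changed more than any of the 8 genes with senescence at 20% oxygen, but not with passage at 3% oxygen or between the young groups. DKC1 encodes dyskerin, the pseudouridine synthase of ribosomal RNA processing that also stabilises the telomerase RNA. Their mean was 0.04, -0.08 and -0.35 in old cells at 3% oxygen and -0.54, -0.75 and -0.97 in senescent cells. It was 0.29, -0.14 and 0.17 in young cells at 3% oxygen and 0.40, 0.49 and 0.44 in young cells at 20%. Senescent cells lay below and young cells at 20% oxygen above all other arrays. In a fit with such annotations added, senescent cells were 1.20 ± 0.14 lower than young cells at 20% oxygen (2.29-fold, adjusted p = 1.20e-04), where 12.5% of its 20875 entries were called. This call held under all 23 alternatives run for it. With passage at 3% oxygen the change was -0.23 ± 0.14 and was not called (adjusted p = 0.437, with 1.59% of entries called). The passage change at 20% was 0.96 ± 0.20 more negative than that at 3% oxygen (adjusted p = 0.0122, with 6.44% of entries called). Only the 20% arm ends in senescent cells, so oxygen and senescence cannot be told apart here. Old cells at 3% oxygen were 0.62 ± 0.14 higher than senescent cells (adjusted p = 0.0120, with 10.9% of entries called), a call lost without replicate 3 of the senescent cells (0.0591) or replicate 1 of the old cells (0.0596). Young cells at 3% oxygen were at -0.34 ± 0.14 against young cells at 20%, not called (adjusted p = 0.173, with 11.6% of entries called). Across passage and oxygen, senescent cells were 0.86 ± 0.14 lower than young cells at 3% oxygen (adjusted p = 0.00148). Old cells at 3%, which were not senescent, were also 0.57 ± 0.14 lower than young cells at 20% (adjusted p = 0.0163). That last call was lost under 3 of 23 alternatives. Ordered by mean, young cells at 20% oxygen came first, then young cells at 3%, old cells at 3% and senescent cells, and of these neighbours only old and senescent cells were called as different.

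All 3 of these probe sets were called lower with senescence at 20% oxygen, where 9.46% of all probe sets but controls were called. The log2 change was -1.37 ± 0.19 for 201478_s_at, -0.92 ± 0.11 for 201479_at and -1.30 ± 0.19 for 216212_s_at. The smallest change of the 3 came with the smallest error. Which of the 3 named genes the probes bound was not tested. The proliferation genes had means of -0.70 and -0.60 in these senescent and young cells. Of the 18, 0 were called higher and 2 lower, against 4.67% and 7.84% of all genes. The part of growth in the DKC1 result was not tested.

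Dyskerin works in a complex with GAR1, NOP10 and NHP2, which NAF1 and SHQ1 help to assemble. GAR1, which sits at the catalytic site of the mature complex, had -0.10, -0.26 and 0.01 in old cells at 3% oxygen and -0.67, -0.68 and -0.85 in senescent cells. It had 0.03, -0.01 and 0.15 in young cells at 3% oxygen and 0.33, 0.41 and 0.49 in young cells at 20%. Its groups fell in the same order as those of the DKC1 probe sets, at the same ends. With senescence at 20% oxygen GAR1 was 1.14 ± 0.10 lower (2.21-fold, adjusted p = 9.47e-06), and its passage change at 20% was 0.97 ± 0.14 more negative than at 3% oxygen (adjusted p = 0.00113). SHQ1, the chaperone of free dyskerin, was 0.74 ± 0.13 lower in senescent cells at -0.14, -0.41 and -0.24, against 0.53, 0.54 and 0.37 in young cells at 20% oxygen (adjusted p = 8.32e-04). NOP10, NHP2 and NAF1 were not called in any of these comparisons, with senescence changes of 0.07, 0.04 and -0.25. These 5 genes were part of a list on telomerase RNA complexes and their biogenesis, with 10 genes measured. Of those 10, 0 were called higher and 2 lower with senescence, against 4.67% and 7.84% of all genes. The 2 were GAR1 and SHQ1.

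**Figure D4:**
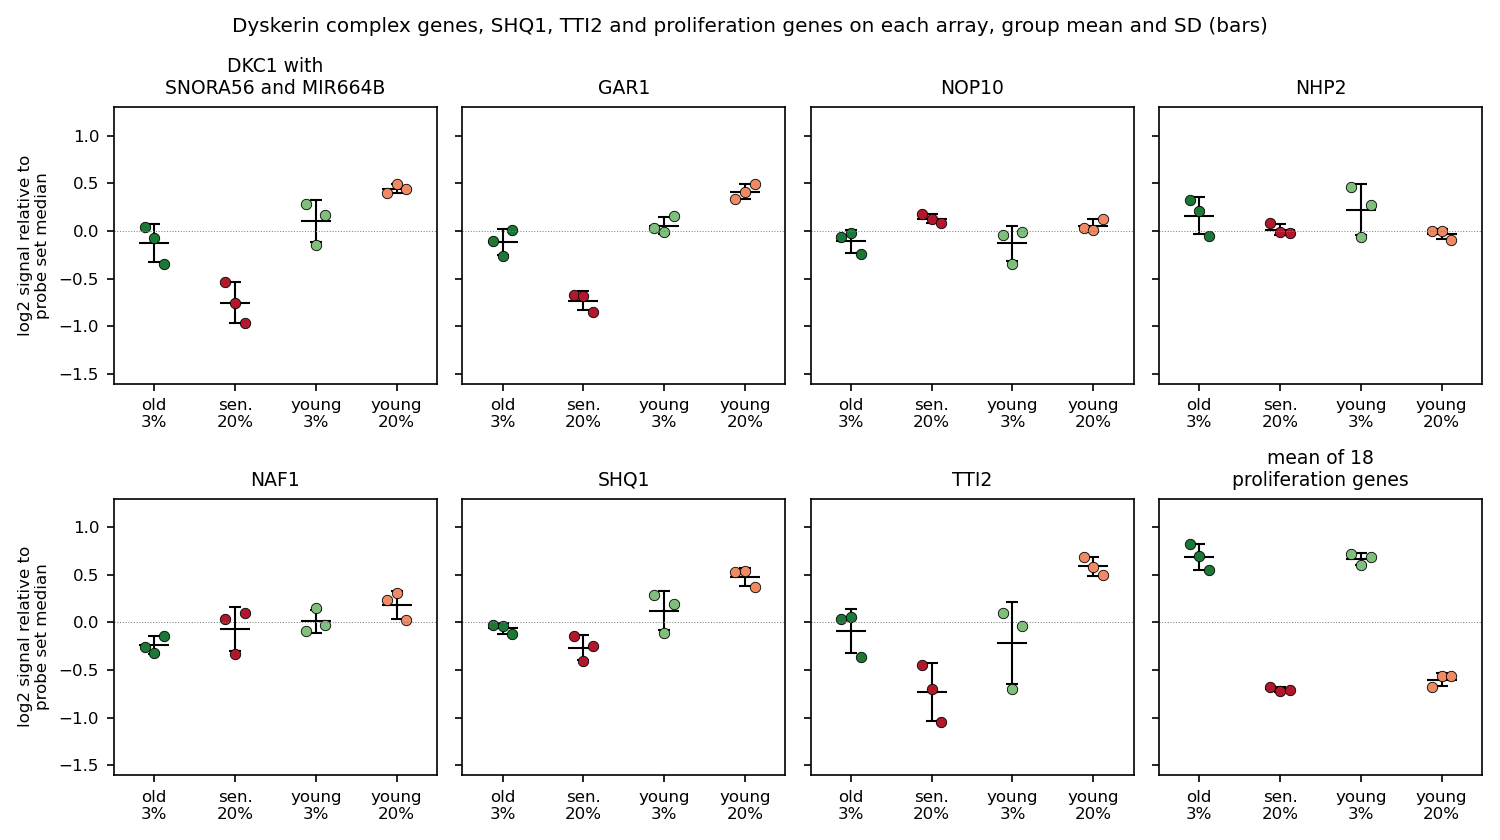
Log2 signal relative to the probe set median on each array (points) with group mean and SD (bars), for the DKC1 probe sets, dyskerin's partners and assembly factors, TTI2 and the mean of the proliferation genes. GAR1 and SHQ1 lie highest in young cells at 20% oxygen and lowest in senescent cells, while the proliferation mean separates 3% from 20% oxygen.

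Of 54 other telomere genes in 7 lists, 51 were measured. In senescent against young cells at 20% oxygen 2 of the 51 were called higher and 5 lower, against 4.67% and 7.84% of all genes, and their median change was -0.14, against 0.04 over all genes. The lower ones were GAR1 and SHQ1, TTI2 (-1.32 ± 0.20), a subunit of the complex that stabilises the ATM and ATR kinases, FEN1 (-0.48 ± 0.14), the flap endonuclease, and DCLRE1B (-0.39 ± 0.11), the Apollo nuclease that TERF2 recruits. The higher ones were SMARCAL1 (0.54 ± 0.14), a fork remodeler, and MNT (0.48 ± 0.12), a repressor that pairs with MAX. The calls of GAR1, SHQ1 and TTI2 held under all 23 alternatives, while those of FEN1 and DCLRE1B were lost under 9 and 10 of them and those of SMARCAL1 and MNT under 6 each. TTI2 had -0.44, -0.69 and -1.05 in senescent cells, against 0.69, 0.58 and 0.49 in young cells at 20% oxygen (adjusted p = 9.45e-04), and its passage change at 20% was 1.44 ± 0.29 more negative than at 3% oxygen (adjusted p = 0.00973).

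With passage at 3% oxygen 0 of the 51 were called higher and 1 lower, against 0.981% and 0.759% of all genes. That gene was E2F1, an activator of replication genes, at -0.61 ± 0.12 (adjusted p = 0.0242), a call lost under 10 of 23 alternatives. E2F1 had 0.19, 0.31 and 0.13 in old cells and 0.60, 0.91 and 0.95 in young cells at 3% oxygen.

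Some telomere replication genes were called higher in the low-oxygen cells. Between young cells at 3% and 20% oxygen 11 of the 51 were called higher and 3 lower, against 4.96% and 6.84% of all genes. Of the 11 replication and processing genes 6 were called higher, led by the resection nuclease EXO1 (1.90 ± 0.15), the helicase BLM (1.27 ± 0.20), the helicase-nuclease DNA2 (1.15 ± 0.19) and the primase-polymerase subunit POLA1 (1.11 ± 0.12). The lower ones were TTI2 (-0.80 ± 0.20), whose call was lost under 4 of 23 alternatives (at a threshold of 0.01, and without replicate 1 or 2 of the young cells at 20% oxygen or replicate 2 of those at 3%, with adjusted p of 0.0850, 0.0627 and 0.0743), MXD1 (-0.55 ± 0.10), an antagonist of MYC, and GAR1 (-0.35 ± 0.10), whose call was lost under 13 of 23 alternatives. Between old cells at 3% oxygen and senescent cells 12 were called higher and 1 lower, against 6.59% and 4.41% of all genes. EXO1 was 2.11 ± 0.15 higher in old cells, with 1.13, 0.74 and 0.95 in old cells against -1.17, -0.92 and -1.43 in senescent cells. The lower one was MYC, at -0.62 ± 0.15 (adjusted p = 0.0176), a call lost under 5 of 24 alternatives. GAR1 was 0.61 ± 0.10 higher in old than in senescent cells (adjusted p = 0.00113). These replication genes are also used in S phase, and 16 of 18 proliferation genes were called higher in the same comparisons, whose part in them was not tested.

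**Figure D5:**
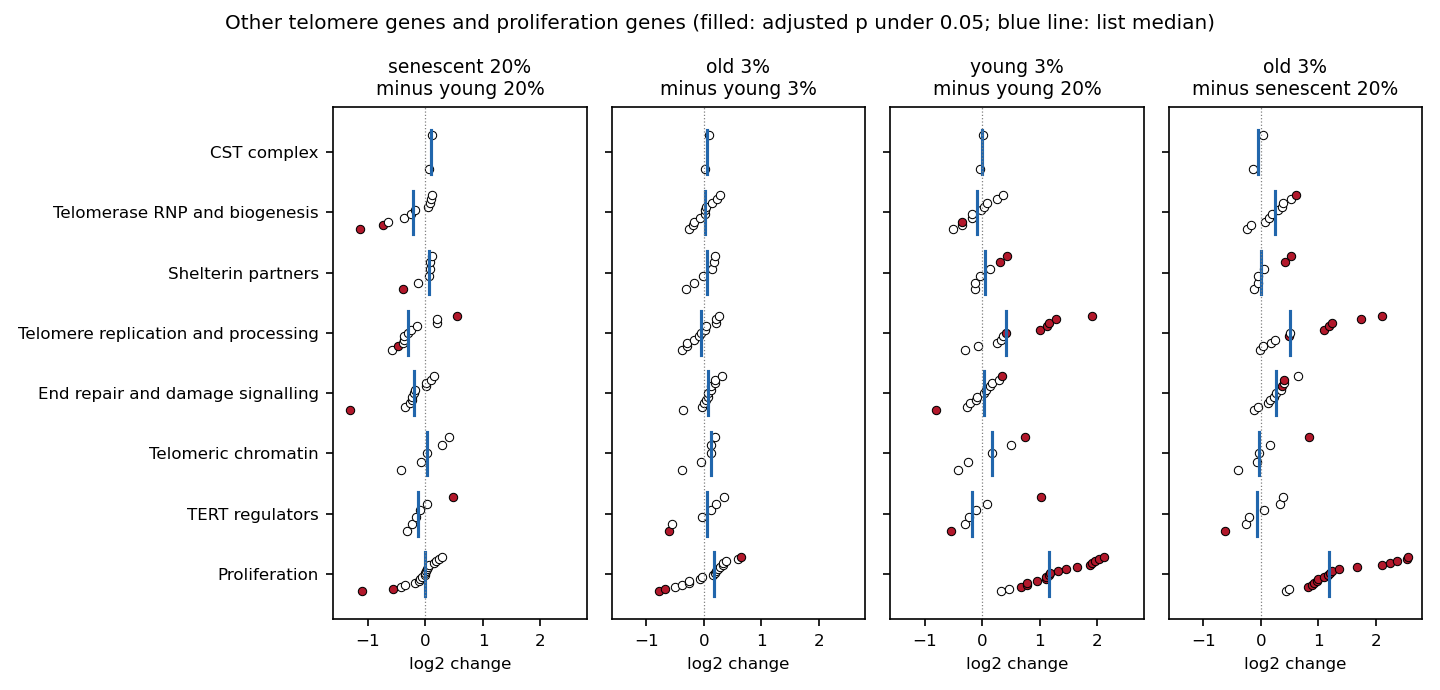
Log2 change of each gene in the 7 other telomere lists and of the proliferation genes, by comparison, with filled points at an adjusted p under 0.05 and a line at each list's median. The replication and processing list has medians of 0.41 and 0.50 in the oxygen comparisons and -0.30 and -0.05 in the passage comparisons, and the proliferation list 1.17 and 1.18 against 0.00 and 0.17.

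The genes whose values lay nearest to a called gene over the 12 arrays, by Euclidean distance of mean-centred log2 values, were DPYSL3, SNRNP35 and TADA2A for TERF1, TANGO2, PEA15 and SUCO for TERF2IP and KAT7, TDP1 and MID1 for POT1. For the DKC1 probe sets they were AMD1, FERRY3 and ESF1. The nearest of all, DPYSL3, differed from TERF1 by 0.062 per array on average, and AMD1 differed from the DKC1 probe sets by 0.065. AMD1, the decarboxylase that feeds polyamine synthesis, had -0.55, -0.77 and -0.84 in senescent cells, against 0.37, 0.49 and 0.43 in young cells at 20% oxygen.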

How the data were processed

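The labels describe total RNA of IMR-90 cells on Affymetrix arrays, 12 in all. The authors made the deposited log2 values with RMA, per the submitters' processing notes, whose version is not given in the sources used here; the base 2 is assumed from RMA. Every probe set has a median of 0 over the 12 arrays within 5e-07, so absolute levels are lost. Of 54675 probe sets, 62 are controls and 41091 name 1 gene, 41037 of them matched by Entrez identifier to current symbols. Their mean was taken per gene, which gave 19775 genes.

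One limma model (version 3.58.1, R 4.3.3; lmFit and eBayes, two-sided) held a mean for each group of the 12 arrays, with Benjamini-Hochberg adjustment over all genes within a comparison and a threshold of 0.05. Probe sets were fitted singly, and 1100 annotations that name several genes, DKC1 among them, were added in a fit of 20875 entries, chosen after the data were seen, as were the motifs. The fit was tested on simulated data. Members and gene lists were chosen with earlier results of these data known. Up to 4 called genes of largest change are named per list and comparison, and the 3 nearest genes per called gene. Replicate numbers pair samples by the rule used (every pair's correlation of deviations over 0.1) only between old and senescent cells, at 0.129, 0.519 and 0.669. Alternatives were an intensity trend with robust eBayes, the probe set of largest SD, no collapse, quantile normalization, median centring, 2 groups alone, array weights, replicate blocks, a threshold of 0.01, a filter on flat genes, 2 covariates and each array left out. The number of arrays limits the precision.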

Additional observations from a re-analysis of the deposited data

Results flagged for a closer look

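The probe sets that name DKC1 with SNORA56 and MIR664B were marked out because their change with passage differed between the oxygen levels in a test of the difference itself. The passage change at 20% oxygen minus that at 3% oxygen was -0.96 ± 0.20 (limma, adjusted p = 0.0122, 3 arrays per group). It kept its sign under all 22 alternatives, with an adjusted p between 0.0074 and 0.0358 when 1 array was left out.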

How the results depend on the processing

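The calls of TERF1 and TERF2IP between old cells at 3% oxygen and senescent cells, and of the DKC1 probe sets and GAR1 between senescent and young cells at 20% oxygen, held under every alternative run. Counts of the 8 genes called moved as follows, where the cause was not tested. Those over all genes moved as well, as the ranges further below show. Between old and senescent cells, 2 became 3 with array weights, where 4137 of all 19775 genes were called. In senescent against young cells at 20% oxygen, 0 became 1 with the probe set of largest SD or no collapse (TERF2 each time) and 3 with array weights. With those weights 6203 of the 19775 genes were called there. Replicate 1 of young and of senescent cells at 20% oxygen weighed 5.54 and 5.69, against 0.374 to 1.73 on the other arrays. The weighted means of these groups thus rest mostly on that replicate. With passage at 3% oxygen, 0 became 1 with the array-wide factor (RTEL1), as it did for the difference of the passage changes. That factor was drawn from these same arrays and is no separate support. Between young cells at 3% and 20% oxygen, 2 became 3 with array weights, RNA quality or the array-wide factor, 1 with the intensity trend, median centring, the filter on flat genes or the replicate block, and 0 with the probe set of largest SD, the 2 groups alone or a threshold of 0.01. Any difference among the groups gave 4 with array weights or the array-wide factor and 1 at the threshold of 0.01. Over all genes it was called for 7673 with array weights and 2496 at that threshold. With 1 array left out these counts ran between 0 and 3 for the young cells and 1 (without replicate 3 of the senescent cells) and 3 (without replicate 2 of the young cells at 3% oxygen) for any difference, and stayed at 0, 0, 2 and 0 for senescence, passage at 3% oxygen, old against senescent cells and the difference of the passage changes. The replicate block ended the call of POT1 (adjusted p = 0.0841) and no other call of the 8 genes or the DKC1 probe sets.

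Over all genes, 2474 were called with senescence (1477 to 6203 over the alternatives other than left-out arrays), 344 with passage at 3% oxygen (124 to 2457), 2333 between young cells (1412 to 4439), 2176 between old and senescent cells (1305 to 4137), 1273 for the difference of the passage changes (624 to 2684) and 3960 for any difference (2496 to 7673). With 1 array left out the count for passage at 3% oxygen ran between 187 and 423. Of the 51 other telomere genes, the counts higher and lower over the same alternatives ran between 0 and 6 and between 3 and 21 with senescence, 0 and 0 and between 0 and 3 with passage at 3% oxygen, 7 and 14 and between 1 and 7 between young cells, 9 and 19 and between 0 and 4 between old and senescent cells. The number of arrays, 3 per group, limits the precision of each change to its interval.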
